A study of Arabidopsis thaliana with 6 samples.

Results

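The genes described here are those of the mitochondrial and the chloroplast genome of *Arabidopsis thaliana* that have a row in the expression table. They were chosen by locus alone, as all rows of the expression table whose locus starts with ATMG (mitochondrion) or ATCG (chloroplast), and they number 92 mitochondrial and 15 chloroplast rows, 107 of 27827 rows in all. Any gene of either genome without a row is not covered, so counts and medians below describe these rows and not whole genomes. Transcript levels of *naa20* and of wildtype seedlings came from Affymetrix Arabidopsis Gene 1.0 ST arrays, 3 for *naa20* and 3 for wildtype. The mutant is *naa20-1* in the Col-0 background, a T-DNA insertion line of the catalytic subunit of the N-terminal acetyltransferase complex NatB, which acetylates the N-termini of nascent proteins, and the wildtype is Col-0. All seedlings of both genotypes were exposed to 2 mM DTT (dithiothreitol), a reductant of disulfide bonds, under short days with 8.5 h of light, and were 17 days old. Per the labels, whole seedlings were transferred to DTT at day 2 and sampled as 3 pools of at least 10 seedlings, whereas the study's text also describes individual plants, and a day on control medium before DTT for the mutant only. Arrays without DTT were not analysed here, so no value below is an effect of DTT, and *naa20* is represented by a single insertion line.

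Both organelles keep a small genome of bacterial origin. The plastid genome codes for core subunits of the photosystems, of the cytochrome b6f complex and of ATP synthase, for the large subunit of Rubisco, and for ribosomal and transfer RNAs. The plant mitochondrial genome codes for some subunits of the respiratory chain, for ribosomal proteins and factors of cytochrome c maturation, for ribosomal and transfer RNAs, and for many open reading frames. Most other proteins of these complexes are encoded in the nucleus and imported, as are sigma factors, phage-type polymerases and most RNA-binding proteins that act on organelle RNA, while the core subunits of the plastid's bacterial-type RNA polymerase are encoded in the plastid. The sources used here pair no ATMG or ATCG locus with a gene name, so the rows are given by locus and without a role, and loci are numbered along each genome.

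The signals are log2 values after quantile normalization, which gave all 6 arrays the same set of values between 1.746 and 14.58, with a median of 6.12. A row at rank 1 therefore reads 14.58 on every array whatever its RNA level, and a row near the top can move only as far as its rank moves. The top 1% of rows, at or above 11.79, is called the ceiling below. Signals of different rows come from different probes, so their heights say where a row lies on this scale and not which RNA is more abundant. *NAA20* (AT1G03150), the mutated gene, read 7.44, 6.98 and 7.54 on the *naa20* arrays and 8.69, 8.56 and 8.83 on the wildtype arrays, a difference of -1.38 (adjusted p = 0.000689, limma). Of 8 leaf markers 6 were lower in *naa20* and none was higher, with summed signals of 15.2 on each *naa20* array, against 15.5 on each wildtype array (log2 of the sum). Between 3 and 6 of them were lower when 1 array was left out, with *LHCB2.1* lost without wildtype array 1 or 2, *LHCB3* without *naa20* array 1, *RCA* without wildtype array 1 or 2 or *naa20* array 1, and *GAPA* without wildtype array 1 or 2 or *naa20* array 1 or 3. The leaf sum is weighted to the highest signals, and the highest, *RBCS1A*, read 14.18 on all 6 arrays, always at rank 4. Single leaf markers differed by -2.17 (*CAB3*) to 0.00 (*RBCS1A*). Of 12 root markers 10 were lower and none was higher, with summed signals of 9.67 to 10.05 in *naa20*, against 12.02 to 12.27 in wildtype, and *EXPA18*, a root hair expansin, differed by -4.08. No marker signal is a true zero on this scale. In whole seedlings, fewer cells of a type and less RNA per cell cannot be told apart, and the part of these marker differences in the values below was not tested.

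Rows of the 2 genomes that passed the test lay mostly in opposite directions, and all differed by less than 2-fold. Of the 15 chloroplast rows, 7 were lower in *naa20* below an adjusted p of 0.05 and 0 were higher, where 17.4% of all rows on the array were lower by the same test and 16.6% were higher. Most chloroplast rows had high signals, where more rows were lower. Of the 12 with a mean signal from 12 upwards 5 were lower, against 29.9% of all rows in that range, which was set after the values had been seen. Of the 92 mitochondrial rows, 30 were higher and 3 were lower. In either direction these are 7 of 15 and 33 of 92 rows, where the array as a whole had 33.9%. The median difference, *naa20* minus wildtype, was -0.35 over the chloroplast rows and 0.16 over the mitochondrial rows, against -0.004 over all rows. The chloroplast median is the value of ATCG00610, which did not pass and had nearly the same signals as the mitochondrial row ATMG00930. No organelle row reached 2-fold, with a largest difference of -0.81, whereas 9.92% of all rows passed both an adjusted p of 0.05 and 2-fold. At an unadjusted p below 0.05, 8 of 15 chloroplast and 44 of 92 mitochondrial rows were counted, beside 11939 of all 27827 rows. The contrast between the genomes was not tested itself, since rows of a genome share arrays and, in part, transcripts.

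**Figure D1:**
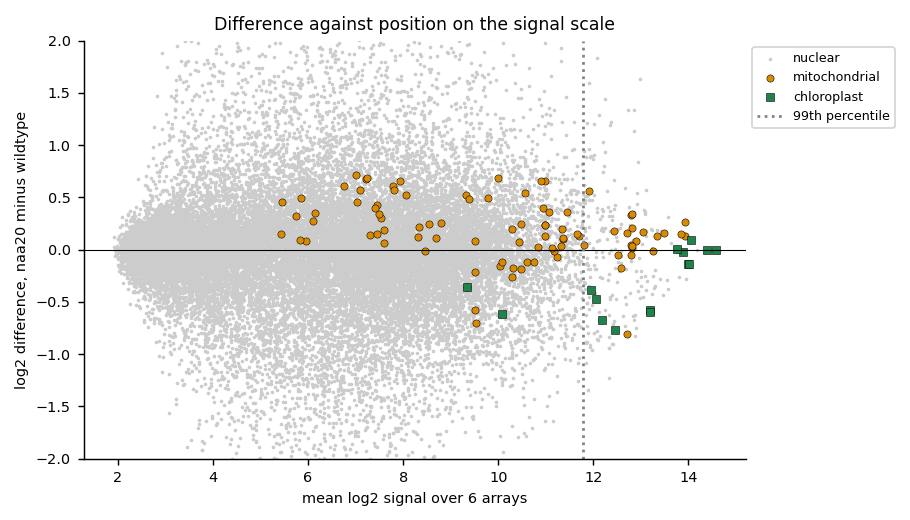
Each point is a row, with its mean log2 signal over 6 arrays on the x axis and its log2 difference, *naa20* minus wildtype, on the y axis, for nuclear (grey), mitochondrial (orange circles) and chloroplast (green squares) rows. The dotted line marks the 99th percentile of signals at 11.79, and 639 nuclear rows lie beyond the y axis. Most mitochondrial points lie above 0, and chloroplast points lie below 0 or, at the right edge, close to it.

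The chloroplast rows that were lower in *naa20* lay within a narrow band of differences, between -0.77 and -0.39. ATCG00240 had the lowest. It read 12.09, 12.14 and 11.99 in *naa20* and 12.88, 12.85 and 12.80 in wildtype, and fell by 41.5% on the linear scale (difference -0.77 ± 0.0853 SE, adjusted p = 0.00054, limma). All 3 mutant arrays lay below all 3 wildtype arrays. The loci next to it behaved alike. ATCG00250 read 11.71, 11.96 and 11.87 in *naa20* and 12.58, 12.47 and 12.52 in wildtype, a difference of -0.67 (adjusted p = 0.00173, limma). ATCG00230 read 9.71, 9.83 and 9.75 in *naa20* and 10.40, 10.32 and 10.41 in wildtype, a difference of -0.61 (adjusted p = 0.0014, limma). The groups did not overlap in either row, and all 3 neighbouring loci from ATCG00230 to ATCG00250 were therefore lower.

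A second pair, ATCG00990 and ATCG01140, gave nearly identical readings. ATCG01140 read 12.83, 12.97 and 12.91 in *naa20* and 13.50, 13.53 and 13.48 in wildtype, a difference of -0.60 (adjusted p = 0.0015, limma). ATCG00990 differed by -0.58 (adjusted p = 0.00173, limma), and the signals of these rows were never more than 0.0312 apart on any array. They were counted as 2 rows above and amount to 1 independent reading, with which 6 distinct chloroplast signals were lower. The plastid genome of land plants carries an inverted repeat whose genes are present as a pair of copies.

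ATCG00160 and ATCG00170 are likewise adjacent loci. ATCG00160 read 11.84, 11.84 and 11.77 in *naa20* and 12.37, 12.26 and 12.25 in wildtype, a difference of -0.47 (adjusted p = 0.00435, limma). ATCG00170, which the study lists as coding for a plastid protein, read 11.77, 11.70 and 11.82 in *naa20* and 12.15, 12.11 and 12.20 in wildtype, a difference of -0.39 (adjusted p = 0.0105, limma). Both rows were separated between the genotypes, by less than the rows around ATCG00240. The 7 calls were also made in each of the 6 fits that left out 1 array and in the fit with replicate numbers as blocks.

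ATCG00610 had the lowest signals of the chloroplast rows and did not pass. It read 9.19, 9.32 and 9.01 in *naa20* and 9.35, 9.68 and 9.55 in wildtype, a difference of -0.35 ± 0.124 SE (adjusted p = 0.066, limma). Its groups did not overlap, but its arrays within a genotype were spread more widely (SD 0.155 in *naa20* and 0.164 in wildtype) than those of the rows around ATCG00240.

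**Figure D2:**
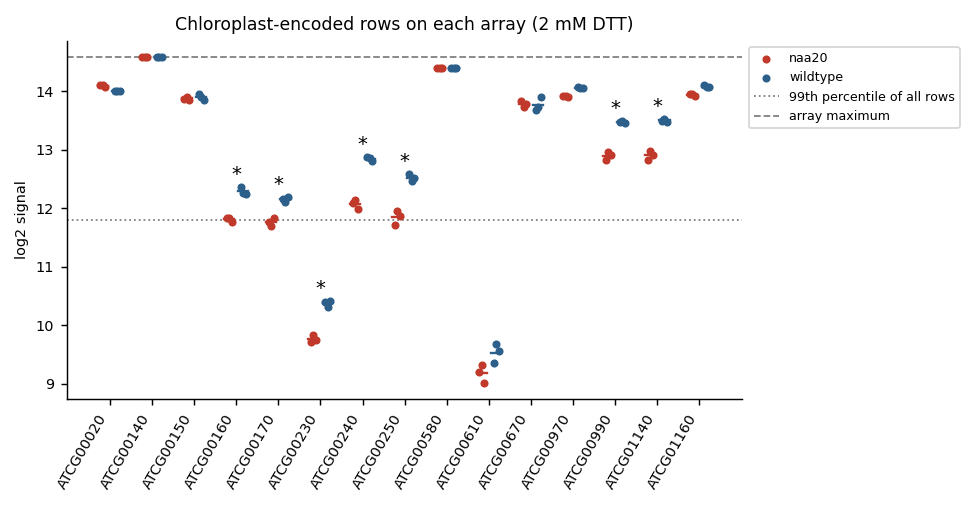
Log2 signal (y axis) of the 15 chloroplast rows (x axis) on the 3 *naa20* arrays (red, left of each pair) and the 3 wildtype arrays (blue), with a short line at each mean and an asterisk at an adjusted p under 0.05. Dotted and dashed lines mark the 99th percentile (11.79) and the array maximum (14.58). The 7 rows with the highest signals carry no asterisk, and 7 of the other 8 do.

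The remaining 7 chloroplast rows were those with the highest signals, all within the first 21 ranks on every array. ATCG00140, which the study lists as a plastid transmembrane protein, read 14.58 on all 6 arrays, the array maximum, and ATCG00580 read 14.39 on all 6, always at rank 3. Neither row can show a decrease as long as its rank is kept. ATCG00020 read 14.10, 14.10 and 14.07 in *naa20* and 14.002, 14.002 and 13.998 in wildtype, a difference of 0.09 (adjusted p = 0.427, limma), and its ranks lay between 5 and 6 in *naa20*, against 8 and 9 in wildtype. ATCG00970 differed by -0.14 (adjusted p = 0.21) and ATCG01160 by -0.14 (adjusted p = 0.233), and these rows again shared their readings within 0.0371. In both, the *naa20* arrays lay below the wildtype arrays without overlap, by a shift of only a few ranks. ATCG00150 differed by -0.03 (adjusted p = 0.841) and ATCG00670 by 0.01 (adjusted p = 0.96), with overlapping groups.

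By the 99th percentile on every array, 10 of the 15 chloroplast rows were at the ceiling, of which 3 were lower in *naa20* (ATCG00240, ATCG00990 and ATCG01140), while 25.7% of all 171 rows at the ceiling were lower and 16.4% higher. Of the 5 rows that were not at the ceiling on every array, 4 were lower. Among the first 20 ranks the step from a rank to the next averaged 0.0461, with 0.211 between ranks 3 and 4, so a difference there is made of few, coarse steps. Nuclear rows among the first 20 ranks on every array numbered 7, of which 1 was lower and none was higher. They include AT3G32990, AT2G07688 and AT3G33000, whose signals were within 0.05 of those of ATCG00140, ATCG00020 and ATCG00150 on every array. These nuclear rows repeat chloroplast readings and are no independent comparison. Another of the 7, *RBCS1A*, a gene for the small subunit of Rubisco, was at rank 4 on all 6 arrays with a difference of 0.00. *RBCS2B* of the same family, not at the ceiling on every array, differed by -1.64 (adjusted p = 0.000298, limma). A difference near 0 in these 7 chloroplast rows does not show that their RNA levels were equal.

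More mitochondrial rows rose than fell. Of the 92 rows, 73 had a positive difference and 19 a negative one. In 50 rows all *naa20* arrays lay above all wildtype arrays, which was true of 23.4% of all rows on the array, and in 11 rows they lay below, against 24.1% of all rows. The 30 rows called higher had differences between 0.27 and 0.71, or 20.3% to 63.8% more on the linear scale, with a median of 0.51.

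The 5 highest mitochondrial rows were ATMG00250, ATMG00040, ATMG01180, ATMG00850 and ATMG01240. ATMG00040 read 10.37, 10.29 and 10.35 in *naa20* and 9.52, 9.81 and 9.60 in wildtype, a difference of 0.69 ± 0.102 SE (adjusted p = 0.00201, limma). ATMG01180, listed by the study as coding for a mitochondrial protein, read 7.70, 7.57 and 7.48 in *naa20* and 6.87, 6.93 and 6.90 in wildtype, a difference of 0.69 ± 0.0914 SE (adjusted p = 0.00121, limma). ATMG00850, listed likewise, read 7.40, 7.65 and 7.63 in *naa20* and 6.67, 7.09 and 6.91 in wildtype, a difference of 0.67 (adjusted p = 0.00729, limma). All 3 rows kept their calls when any 1 array was left out.

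The other 2 of the 5 lost their calls in some of the fits that left out 1 array. ATMG00250 read 7.35, 6.99 and 7.73 in *naa20* and 6.77, 6.60 and 6.56 in wildtype, with the highest difference of all organelle rows, 0.71 ± 0.183 SE (adjusted p = 0.0212, limma), and it lost its call without wildtype array 2, wildtype array 3 or *naa20* array 1. ATMG01240 read 8.002, 8.42 and 8.38 in *naa20* and 7.19, 7.90 and 7.74 in wildtype, a difference of 0.66 ± 0.205 SE (adjusted p = 0.0434, limma). It was lost without wildtype array 1 or 3, or without *naa20* array 2 or 3. Both rows passed in the blocked fit, with an adjusted p of 0.0228 for ATMG00250 and 0.00538 for ATMG01240 (limma). In both rows the closest arrays of the genotypes lay near each other, although the groups did not overlap.

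The 3 mitochondrial rows that passed as lower were ATMG00380, ATMG01070 and ATMG01060. ATMG00380 had the lowest difference of all 107 organelle rows. It read 12.29, 12.38 and 12.24 in *naa20* and 13.14, 13.12 and 13.08 in wildtype, and fell by 42.9% on the linear scale (difference -0.81 ± 0.0841 SE, adjusted p = 0.000424, limma). ATMG01070 read 9.13, 9.20 and 9.24 in *naa20* and 9.91, 9.85 and 9.91 in wildtype, a difference of -0.70 (adjusted p = 0.000692, limma). Its neighbour ATMG01060, which the study lists among mitochondrial proteins, read 9.20, 9.24 and 9.21 in *naa20* and 9.83, 9.77 and 9.80 in wildtype, a difference of -0.58 (adjusted p = 0.00128, limma). The genotypes were far apart in these rows relative to the spread of their arrays, and all were called without any 1 array. Next in order came ATMG00930 at -0.35 (adjusted p = 0.0657) and ATMG01270 at -0.27 (adjusted p = 0.0532), neither of which passed.

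**Figure D3:**
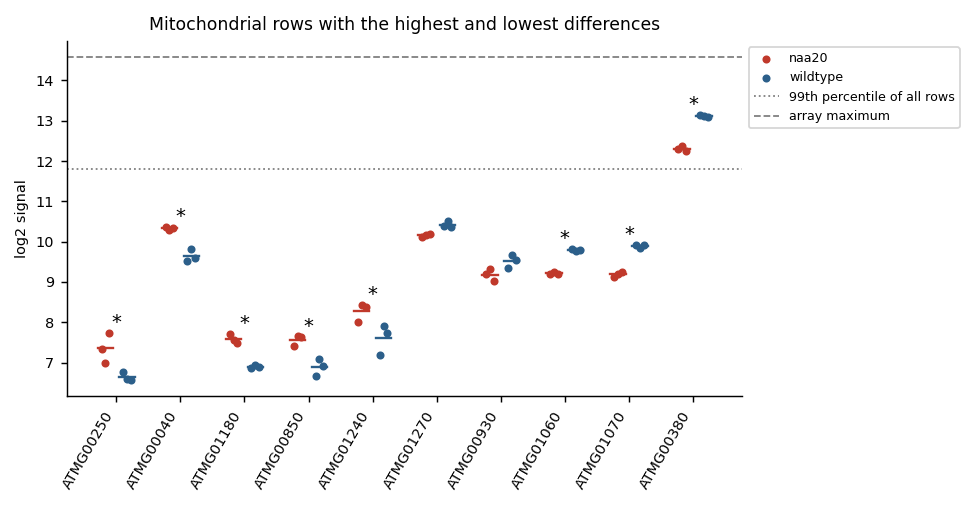
Log2 signal (y axis) of the 5 mitochondrial rows with the highest and the 5 with the lowest difference (x axis) on the 3 *naa20* arrays (red, left of each pair) and the 3 wildtype arrays (blue), with a short line at each mean and an asterisk at an adjusted p under 0.05. Dotted and dashed lines mark the 99th percentile (11.79) and the array maximum (14.58). ATMG00380 lies above the 99th percentile in both genotypes and still shows the widest gap.

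Some of the calls lay at neighbouring loci, in stretches picked after the values had been seen. From ATMG00800 to ATMG00880 the table holds 9 rows, of which 8 were higher in *naa20*, with differences between 0.25 and 0.67 and a median of 0.52. The exception was ATMG00830 (difference 0.25, adjusted p = 0.0677). ATMG00840 to ATMG00880 were 5 successive rows called higher, the longest such run, and 19 successive rows from ATMG00600 to ATMG00920 all had a positive difference. In contrast, ATMG01060 and ATMG01070 were adjacent and both lower, between rows that were higher. Several rows from ATMG00800 to ATMG00880 had mean signals below 8, where all mitochondrial rows had a positive difference, and 73 of the 92 rows were positive. Neighbouring loci can lie on a shared transcript, so runs were only counted, and whether calls were spread unevenly was not tested.

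**Figure D4:**
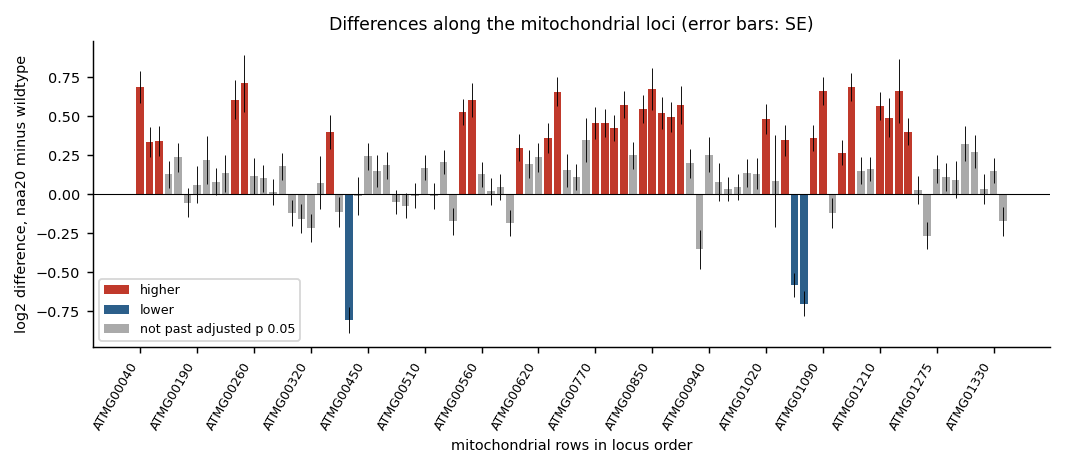
Log2 difference, *naa20* minus wildtype (y axis, error bars are SE), of the 92 mitochondrial rows in the order of their loci (x axis), coloured red where higher, blue where lower and grey where the adjusted p was not under 0.05. Of the 9 rows from ATMG00800 to ATMG00880, a stretch picked after the values had been seen, 8 are red. The 3 blue bars stand at ATMG00380, ATMG01060 and ATMG01070.

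The differences of mitochondrial rows also varied with the height of the signal. All 25 mitochondrial rows with a mean signal below 8 had a positive difference, with a median of 0.40, and 15 of them were called higher, while 14.3% of all rows below 8 were. Between 8 and 10, 5 of 16 rows were higher and 2 were lower (all rows 22.2% and 22.4%), and between 10 and 12, 7 of 31 were higher (22.6%, against 25.6% of all rows in that range). From 12 upwards 3 of 20 were higher and 1 was lower, against 20.9% and 29.9% of all rows. Thus the share of mitochondrial rows called higher lay above that of all rows below 10 and not from 10 upwards. These ranges were set after the values had been seen and carry no test. As the files hold no detection calls, it was not tested whether rows at low signals were above background.

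At the ceiling lay 20 mitochondrial rows, of which 3 were higher and 1 was lower, where 16.4% of all rows at the ceiling were higher and 25.7% lower. The lower row was ATMG00380, whose ranks were 147 to 170 in *naa20*, against 54 to 58 in wildtype. ATMG01120 was the highest called row on the scale. It read 14.05, 13.998 and 14.10 in *naa20* and 13.78, 13.83 and 13.75 in wildtype, a difference of 0.27 (adjusted p = 0.0417, limma, and 0.0746 in the blocked fit), at ranks 5 to 9 in *naa20* and 15 to 18 in wildtype, and it lost its call when any 1 array was left out. ATMG00080 and ATMG00090 differed by 0.33 and 0.34 (adjusted p = 0.0341 and 0.0329, limma), had nearly the same signals as each other, and were each called in 1 of the 6 fits without an array, the one without *naa20* array 2. ATMG00560 differed by 0.13 (adjusted p = 0.288), ATMG01190 by 0.15 (adjusted p = 0.236) and ATMG01200 by 0.16 (adjusted p = 0.167). In these 3 rows every *naa20* array lay above every wildtype array, without passing the test. The other 13 of the 20 rows, from ATMG00160 to ATMG01320, had differences between -0.17 and 0.21.

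Many organelle rows gave a reading that another row of the table also gave. Rows were taken to share their signals where they were within 0.05 on the log2 scale and within 20 ranks on every array, a definition made after the data had been seen. By it 37 of the 92 mitochondrial rows (40.2%) and 12 of the 15 chloroplast rows shared their signals with another row, against 133 of 27720 nuclear rows (0.48%). With a limit of 0.02 these counts were 35, 5 and 128. The nuclear genome of Arabidopsis holds copies of organelle DNA, among them a large insertion of mitochondrial DNA in chromosome 2. All 33 mitochondrial rows with a nuclear counterpart had it at a locus starting with AT2G07 on that chromosome. Of the 8 chloroplast rows with a nuclear counterpart, 4 had it at AT3G32990, AT3G33000, AT3G33002 and AT3G33004, in the order of ATCG00140, ATCG00150, ATCG00160 and ATCG00170. For these rows the array cannot tell the RNA of the organelle gene and of the nuclear copy apart.

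The annotation of the nuclear counterparts names the kind of gene in part. Of the 33 nuclear loci that shared their signals with mitochondrial rows, 15 were transcribed pseudogenes, 9 tRNA genes, 5 protein-coding genes and 4 pseudogenes in the TAIR10.1 annotation of RefSeq. The organelle rows were not matched to that annotation, which uses other locus tags for them. ATMG00380 matched AT2G07764, a tRNA gene for asparagine, and ATMG01070 matched AT2G07743, a tRNA gene for aspartate, with gaps of at most 0.0195 and 0.00391. The counterparts differed by -0.80 and -0.70. ATMG00930 and the chloroplast row ATCG00610 had the same signals within 0.00195, and both matched AT2G07748, a tRNA gene for tryptophan, which differed by -0.35 (adjusted p = 0.0669). Several tRNA genes of plant mitochondria are of plastid origin, so that such sequences can be alike between the organelles.

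Of the other rows with a tRNA gene as counterpart, 2 were called higher. ATMG00250 matched AT2G07758, annotated for methionine (difference 0.71), and ATMG00800 (difference 0.46, adjusted p = 0.00682) matched AT2G07752, annotated for glutamate. ATMG00350, ATMG00230, ATMG00460 and ATMG01340, with counterparts annotated for proline, serine, methionine and methionine, did not pass, with differences of 0.07, 0.14, 0.15 and -0.17. Over the 9 mitochondrial rows of this kind, 2 were higher and 2 lower, where 16.6% of all rows were higher and 17.4% lower. Of the chloroplast rows, ATCG00240 matched AT3G20365, a pseudogene whose synonym names a tRNA for tyrosine, and which differed by -0.77.

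Both directions were also found among rows without a nuclear counterpart. Of the 59 mitochondrial rows without a nuclear counterpart, 23 were higher and 1 was lower (ATMG01060), with a median of 0.20, and of the 33 rows with one, 7 were higher and 2 were lower. Of the 7 chloroplast rows without a nuclear counterpart, 4 were lower (ATCG00230, ATCG00250, ATCG00990 and ATCG01140), with a median of -0.58. The stretch of the table with loci starting with AT2G07 holds 130 rows, of which 24 were higher (18.5%, close to the 16.6% of all rows) and 6 were lower (4.62%, against 17.4% of all rows). In the 96 of them that shared no signals with an organelle row, 17 were higher and 4 were lower, with a median of 0.09.

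Nuclear genes for the same organelles were compared from 6 lists, to be read against the 16.6% of all rows that were higher, the 17.4% that were lower and the median of -0.004. Of 28 nuclear genes of the mitochondrial respiratory chain and ATP synthase, 16 were higher in *naa20* and 0 were lower, with a median difference of 0.32. *SDH1-1*, for the flavoprotein subunit of succinate dehydrogenase, read 11.57, 11.36 and 11.75 in *naa20* and 10.29, 10.08 and 10.47 in wildtype, the highest difference of the list at 1.28 (adjusted p = 0.000564, limma). *CYTC-2*, for cytochrome c, read 9.12, 8.95 and 9.17 in *naa20* and 7.88, 7.94 and 7.60 in wildtype, a difference of 1.27 (adjusted p = 0.000281, limma). These exceeded every difference of a mitochondrial row. The lowest of the list, AT3G15640, differed by -0.22 (adjusted p = 0.147). Between 12 and 14 genes were called higher when 1 array was left out.

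Of 28 nuclear genes of photosynthesis, 26 were lower in *naa20* and 0 were higher, with a median difference of -0.84. *RBCS2B*, for the small subunit of Rubisco, read 9.82, 10.32 and 10.37 in *naa20* and 11.78, 11.74 and 11.91 in wildtype, the lowest of the list at -1.64. The 2 genes that did not pass were *RBCS1A* and *PSBO1*, for a subunit of the oxygen-evolving complex of photosystem II. Both were within the first 20 ranks on every array, and *PSBO1* differed by -0.03 (adjusted p = 0.85). *PSAK*, for a photosystem I subunit and at ranks 10 to 22, was called at -0.26 (adjusted p = 0.0373, limma), lost its call when any 1 array was left out and had an adjusted p of 0.0662 in the blocked fit. The lower leaf markers are partly genes of this process too, with *RBCS1A* in both lists.

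**Figure D5:**
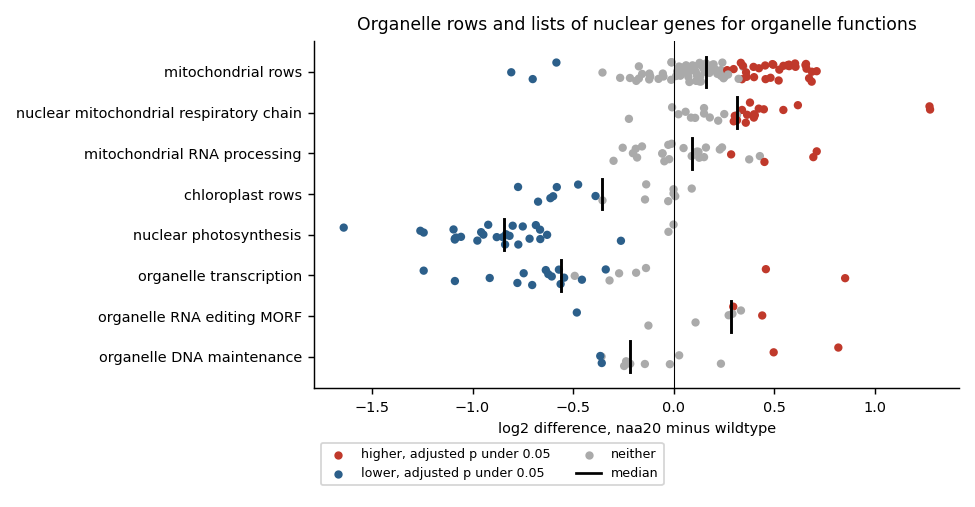
Each point is a row or gene, placed by its log2 difference, *naa20* minus wildtype (x axis), for the mitochondrial rows, the chloroplast rows and 6 lists of nuclear genes (y axis, spread within each line for legibility). Red and blue mark higher and lower genes at an adjusted p under 0.05, grey the others, and vertical bars the medians, which are 0.16 for the mitochondrial rows, 0.32 for the nuclear respiratory chain, -0.35 for the chloroplast rows and -0.84 for nuclear photosynthesis.

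The genes that transcribe organelle genomes formed another list. Plastids use a bacterial-type RNA polymerase with nuclear-encoded sigma factors and associated proteins, and both organelles use phage-type polymerases. Of 21 genes listed, 14 were lower and 2 were higher. The sigma factors *SIG2* and *SIGF* differed by -0.70 and -0.78 (adjusted p = 0.000993 and 0.000459, limma). *PTAC14*, a protein associated with the plastid polymerase, read 8.17, 8.34 and 8.39 in *naa20* and 9.43, 9.67 and 9.53 in wildtype, the lowest difference of the list at -1.24 (adjusted p = 0.000189, limma). Among the listed phage-type polymerase genes, AT5G15700 differed by 0.85 (adjusted p = 0.000931), the highest of the list, and *MGP3* by 0.46 (adjusted p = 0.0217, lost without wildtype array 1 or 3 or *naa20* array 1 or 3). *SCA3*, the third of them, differed by -0.19 (adjusted p = 0.239).

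Factors of RNA editing and processing formed 2 further lists. Of 8 genes for MORF editing factors, 2 were higher and 1 was lower, a share close to the 33.9% of all rows called in either direction. *MORF9*, which acts in plastids, differed by -0.48 (adjusted p = 0.00407, limma), and AT1G32580 by 0.44 and *MORF1* by 0.30 were the higher ones (adjusted p = 0.0257 and 0.0439, limma). AT1G32580 lost its call without wildtype array 1 or 2 or *naa20* array 1 or 2, and *MORF1* without any array other than *naa20* array 2. Neither passed in the blocked fit (adjusted p = 0.0516 and 0.0718). Of 27 genes for mitochondrial RNA processing, 4 were higher, a share close to that of all rows, and 0 were lower, and 1 to 4 were higher without 1 array. *MEF1*, a mitochondrial editing factor, had the highest difference at 0.71 (adjusted p = 0.021, limma, lost without wildtype array 1 or 2 or *naa20* array 2) and *RPF2*, an RNA processing factor, the lowest at -0.30 (adjusted p = 0.354). *PMH2*, a mitochondrial DEAD-box RNA helicase, differed by 0.70 (adjusted p = 0.00318, limma).

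Of 13 genes for organelle DNA maintenance, 2 were higher and 2 were lower, shares close to those of all rows, with a median of -0.22. *RECA2*, a recombinase, read 5.35, 5.24 and 5.36 in *naa20* and 4.29, 4.53 and 4.67 in wildtype, a difference of 0.82 (adjusted p = 0.00175, limma). AT1G30680, given in RefSeq as a homolog of the helicase Twinkle, differed by 0.50 (adjusted p = 0.00319, limma). The lower genes were *GYRB2* and *GYRB1*, for DNA gyrase subunits, at -0.36 each (adjusted p = 0.0219 and 0.0364, limma). *GYRB1* lost its call without any 1 of the 6 arrays, and *GYRB2* without wildtype array 1 or 2 or *naa20* array 1 or 3. The copy number of organelle DNA was not measured.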

How the data were processed

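RNA of *naa20* and wildtype seedlings grown with DTT was measured on 3 arrays of each genotype. The table as deposited holds a log2 signal for 27827 gene loci. The authors had corrected the background by RMA, quantile-normalized the arrays and assigned probes to TAIR loci through custom CDF version 16. Quantile normalization fixes the value at each rank, so among the very highest ranks a difference is limited to the few steps there. Rows further down within the ceiling could still differ, as ATMG00380 did by -0.81. Scanner files were not used here, so detection per probe is unknown here. Precision is limited by having 6 arrays. Nothing states that pools were independent beyond their labels, so p-values measure the spread between these samples.

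Signals were used as deposited. Differences are from lmFit and eBayes of limma 3.58.1 (R 4.3.3), with Benjamini-Hochberg adjustment over all rows, and a call is an adjusted p under 0.05. An exact two-sided permutation test of a single row cannot go below 0.1 with 3 against 3. In a simulation with known changes, this fit called 17 of 67 changes of 0.5 on the log2 scale (25.4%). It called 47 of 67 changes of 1 (70.1%) and 63 of 66 changes of 2 (95.5%), and also 6 unchanged rows. It changed far fewer rows than were called here and drew them from the whole array, so these shares do not carry over to organelle rows. The median SD within a genotype was 0.081 for mitochondrial and 0.053 for chloroplast rows, against 0.149 for all rows. The 15 mitochondrial rows at 0.5 or more were all called. So were the 3 mitochondrial and 5 chloroplast rows at -0.5 or less. All organelle differences lay below 1 in size, and a missing call does not show that a row was unchanged.

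All chloroplast rows were named, with the 5 highest and 5 lowest mitochondrial rows, rows at the ceiling, and the highest and lowest gene of each nuclear list. Rows named beyond these (ATMG00830, rows matching nuclear tRNA genes, *CYTC-2*, *PSBO1*, *PSAK*, *SIG2*, *SIGF*, *MGP3*, *SCA3*, *MORF1*, *PMH2*, *GYRB1*, AT1G30680) were chosen after their values were seen. Members and lists were chosen with earlier results of these data known. Roles of mitochondrial loci and a match of nuclear copies by gene name were planned and could not be assigned, as 0 of the 107 loci match a locus tag of the RefSeq table (TAIR10.1) used for names. A listed gene was used where that table holds its locus, under the symbol given there. No sequence is shown.

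Equal replicate numbers were checked as pairs by correlating, across all rows, deviations from the genotype means. The correlation was 0.176, 0.19 and 0.385 for arrays 1, 2 and 3, all over 0.1, which by this criterion counts as paired. Arrays 1 and 2 of different number correlated about as strongly (0.174 and 0.145), so array 3 alone stands apart, and no source says what a number shares. The fit reported is without the pairing, and the replicate block is an alternative. The others were trend and robust moderation, ordinary variance, further normalizations, a filter of low signals, array weights, each array left out, other thresholds, and, added after seeing the data, rows with shared signals counted once or left out and array 3 of both genotypes left out.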

Additional observations from a re-analysis of the deposited data

How the results depend on the processing

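The opposite medians of the 2 genomes kept their signs under every alternative run. Of these, the further normalizations and the replicate block could not move a median and left both unchanged. All arrays already had the same set of values, and each replicate number occurs in both genotypes. With each array left out in turn, the mitochondrial median lay between 0.16 and 0.20 and the chloroplast median between -0.39 and -0.27. Without rows at the ceiling the medians were 0.21 and -0.47, and without rows matching a nuclear row 0.20 and -0.58. In the fits without 1 array, 20 to 26 mitochondrial rows were higher, 3 were lower, and 7 chloroplast rows were lower, and of the calls made with all arrays, 22 of 33 mitochondrial and 7 of 7 chloroplast ones were made in each of these fits. Without array 3 of both genotypes, 20 mitochondrial rows were higher and 7 chloroplast rows lower.

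With the replicate block, 28 mitochondrial rows were higher and 3 lower and 7 chloroplast rows were lower, so ATMG01120 and ATMG00600 lost their calls. The pairing moved none of these organelle counts by more than 1.5 times, while the count of higher MORF genes went from 2 to 1. Lower mitochondrial rows numbered 5 with trend and robust moderation, 6 at an unadjusted p and 1 without rows matching a nuclear row. Lower chloroplast rows numbered 4 without rows at the ceiling and 4 without rows matching a nuclear row, fewer rows being tested in both. With ordinary variance 1 chloroplast row (ATCG00020) was higher. Its difference was the same as in the main fit, 0.09, and its SD was 0.0214 in *naa20* and 0.00226 in wildtype. The cause of its call was not tested. Dropping the 2-fold requirement gives 33 mitochondrial and 7 chloroplast rows past the threshold in place of 0 and 0. With a ceiling at the 98th percentile, 27 mitochondrial and 13 chloroplast rows were at it, and with a stricter percentile 17 and 9. No member given by name changed the sign of a call.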
